A study of Homo sapiens with 9 samples.

Results

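The intergenic peaks of QKI‐5 HITS‐CLIP were the peaks on nuclear chromosomes whose centre lay in no annotated gene on either strand. They numbered 508 of 24019 nuclear peaks, or 2.11% (95% Wilson interval 1.94 to 2.30%). Genes were those of GENCODE release 44 placed on hg19, the build of the peak list, and comprised 64449 genes, of which 20163 were protein coding. In HITS‐CLIP, ultraviolet light links proteins to the RNA they touch in living cells, 1 protein is pulled down by its antibody, and the RNA pieces still attached are sequenced. The cells were mesHMLE, mesenchymal cells derived from HMLE, a line of human mammary epithelium, under prolonged treatment with TGF‐β1 (2.5 ng/ml) and then kept without it, and all libraries came from these cells after 600 mJ/cm2 of ultraviolet light. There was no untreated or epithelial group. Immunoprecipitation with an antibody to QKI‐5 gave 7 libraries, 3 of the QKI monomer band and 4 of the band taken for its dimer, 1 of the latter made with another reverse transcriptase (SuperScript IV), and 2 libraries came from size‐matched input. They were technical replicates that the authors pooled before calling peaks, so no value below has a spread between replicates and the depth of each library is unknown. The height of a peak is the whole number that the list gives as its pooled signal. Intervals are 95% Wilson intervals of shares of peaks and cover counting error only.

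QKI‐5 is the nuclear isoform of Quaking, a STAR family RNA‐binding protein that regulates splicing and binds the sequence ACUAAC, which is ACTAAC in DNA letters. RNA outside annotated genes has several known sources. RNA polymerase II continues past the poly(A) site before it terminates, which leaves read‐through RNA on the strand of the gene behind it, and many promoters also give rise to short divergent RNAs on the opposite strand. Other such RNAs come from transcripts that the annotation lacks, from longer 3′ ends or earlier starts than it records, and from transcribed repeats. Here each intergenic peak was placed by its distance past the nearest gene end behind it and before the nearest gene start ahead of it, both on its own strand.

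The sequences that follow are hg19 sequence on the strand of the peak, written 5′ to 3′, with ACTAAC in capitals and the distance past the nearest same‐strand gene end beside each name. They are 4 of the 5 tallest intergenic peaks with ACTAAC within 10 kb past a protein‐coding gene end, and they show the motif once in each peak, within otherwise unlike sequence.
IFI44L, 2533 nt past the end, height 103, plus strand, chr1:79114299-79114426: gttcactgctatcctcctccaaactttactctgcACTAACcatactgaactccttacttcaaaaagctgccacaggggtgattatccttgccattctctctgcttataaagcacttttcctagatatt
HNRNPR, 8371 nt past the end, height 91, minus strand, chr1:23621825-23621961: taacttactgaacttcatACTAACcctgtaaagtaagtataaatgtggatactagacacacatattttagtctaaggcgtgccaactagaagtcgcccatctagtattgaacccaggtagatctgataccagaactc
DSEL, 7865 nt past the end, height 70, minus strand, chr18:65165938-65165979: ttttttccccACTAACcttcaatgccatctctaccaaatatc
SPCS2, 1834 nt past the end, height 66, plus strand, chr11:74691858-74691965: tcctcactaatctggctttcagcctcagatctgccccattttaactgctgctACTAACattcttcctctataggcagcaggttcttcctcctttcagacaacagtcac

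The next sequences are 3 of the 5 tallest peaks with ACTAAC that lay more than 10 kb from any gene end behind or gene start ahead on their strand, named by the gene behind. They show that the motif also occurred in peaks far from annotated genes.
DUSP8, 18718 nt past the end, height 55, minus strand, chr11:1556476-1556650: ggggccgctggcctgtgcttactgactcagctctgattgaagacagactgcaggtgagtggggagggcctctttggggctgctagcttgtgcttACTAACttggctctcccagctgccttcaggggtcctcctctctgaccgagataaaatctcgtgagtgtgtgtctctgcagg
LINC02595, 50630 nt past the end, height 52, minus strand, chrX:45655812-45655875: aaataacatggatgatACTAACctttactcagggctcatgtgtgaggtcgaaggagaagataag
LINC02595, 43299 nt past the end, height 50, minus strand, chrX:45663130-45663220: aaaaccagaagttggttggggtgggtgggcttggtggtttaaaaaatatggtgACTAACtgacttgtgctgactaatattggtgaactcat

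The last set holds the 3 tallest intergenic peaks and the fifth tallest, none of which has ACTAAC. Each resembles an abundant cellular RNA over most of its length, as described with the tallest peaks below.
Past VAV3, height 641, minus strand, chr1:108113427-108113520: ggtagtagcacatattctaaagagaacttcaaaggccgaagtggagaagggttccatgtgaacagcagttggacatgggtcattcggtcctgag
Past RNF141, height 491, minus strand, chr11:10530430-10530488: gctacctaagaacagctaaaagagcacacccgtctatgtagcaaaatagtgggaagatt
Far past MAF, height 213, minus strand, chr16:79287398-79287436: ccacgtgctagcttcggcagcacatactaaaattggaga
Before BEND7, height 161, minus strand, chr10:13574402-13574443: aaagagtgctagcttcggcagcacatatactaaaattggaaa

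Intergenic peaks lay close past gene ends on their own strand. The distance from the nearest same‐strand gene end behind to the peak centre was 8132 nt at the median, 2665 nt at the lower and 20183 nt at the upper quartile, and ranged from 15 to 738001 nt. Within 10 kb past such an end were 286 of the 508 peaks (56.3%, interval 52.0 to 60.5%), and 53 lay within 1 kb, 195 within 5 kb, 380 within 20 kb and 434 within 50 kb. Of all strand positions outside genes on both strands, 2177 Mb in total, 12.1% lay within 10 kb past a same‐strand gene end. With 1 peak per locus, a locus being a run of same‐strand peaks whose centres were no more than 1000 nt apart, the share of peaks was 51.3%. With protein‐coding genes alone as the annotation, 2156 peaks lay outside genes, of which 15.2% were within 10 kb past a same‐strand end, where 3.83% of the eligible strand lies.

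The density of peaks fell with that distance. It was 1.65 peaks per Mb of eligible strand in the first kb past an end, 1.59 between 1 and 2 kb, 1.14 between 2 and 5 kb, 0.764 between 5 and 10 kb and 0.484 between 10 and 20 kb. Beyond that it was 0.135 between 20 and 50 kb and 0.0487 beyond 100 kb. The 53 peaks of the first kb came from 40 loci and the 94 peaks between 10 and 20 kb from 56. Median peak height showed no such fall, at 24 in the first kb, 23 between 5 and 10 kb and 24 beyond 100 kb.

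Gene ends of the opposite strand served as a comparison with the same eligible length. Within 10 kb of an opposite‐strand gene end ahead of them lay 130 peaks (25.6%), against the 286 past a same‐strand end. Only the same‐strand end was within 10 kb for 208 peaks, only the opposite‐strand end for 52, and both for 78. In the first kb the density past opposite‐strand ends was 0.715 peaks per Mb.

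Gene starts showed a smaller excess. The nearest same‐strand start ahead was at a median of 27760 nt, and 147 peaks (28.9%) lay within 10 kb before it, where 11.6% of the eligible strand lies. For opposite‐strand starts behind the peak, the position of a divergent transcript, the median was 39704 nt and 114 peaks (22.4%) lay within 10 kb. In the first kb the densities were 0.812 and 0.744 peaks per Mb for same‐strand and opposite‐strand starts. Both edges of genes were near for some peaks, with 93 within 10 kb of a same‐strand end and of a same‐strand start. All 508 peaks had a gene on both sides on their strand, and 342 (67.3%, interval 63.1 to 71.3%) were nearer to the end behind than to the start ahead, compared with 50.9% of the eligible strand.

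**Figure D1:**
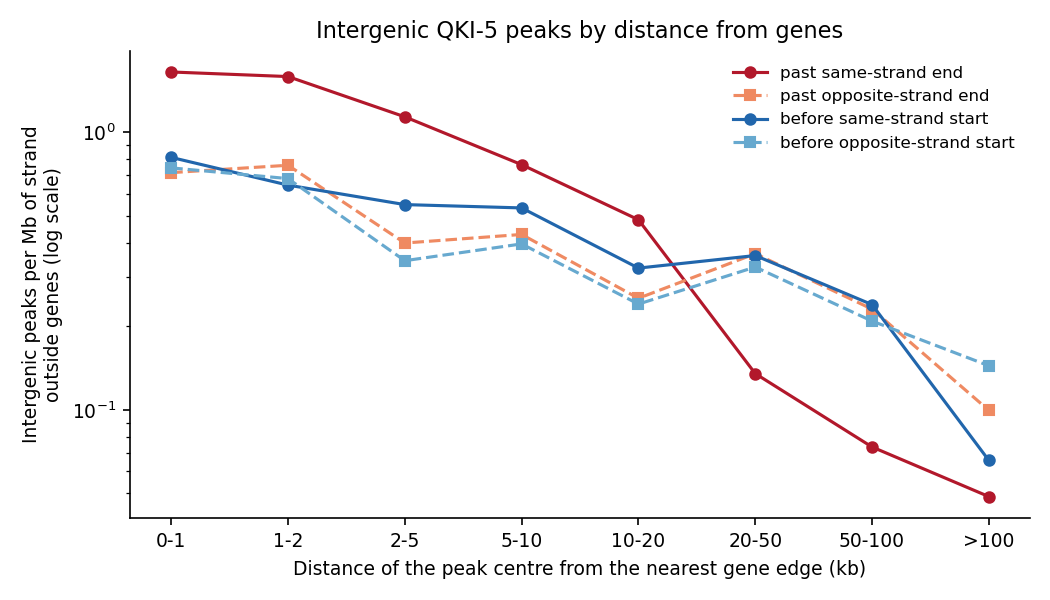
The plot shows intergenic peaks per Mb of strand outside genes (y axis, log scale) by the distance in kb of the peak centre from the nearest gene edge (x axis), for ends and starts of genes on the same strand (solid lines) and on the opposite strand (dashed lines). The density past same‐strand ends starts at 1.65 per Mb, above the other 3 lines, and stays above them up to 20 kb.

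Peaks were sorted into 4 exclusive classes by a fixed order. The 286 peaks within 10 kb past a same‐strand end came from 179 loci. Of the others, 54 lay within 10 kb before a same‐strand start (40 loci), 35 lay within 10 kb of an opposite‐strand start (20 loci) and 133 lay near none of these (106 loci). Median heights were 23.5, 23, 25 and 22 in that order, and median widths 57, 55, 55 and 53 nt. The shares with ACTAAC were 8.74%, 11.1%, 8.57% and 9.77%, and their intervals overlapped.

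Genes behind intergenic peaks often held peaks themselves. The nearest end within 10 kb belonged to 160 genes, 110 of them protein coding (219 peaks), 26 lncRNA genes (39 peaks) and the remainder mostly pseudogenes. Of the 110 protein‐coding genes, 57 (51.8%, interval 42.6 to 60.9%) had at least 1 same‐strand peak inside, compared with 4693 of the other 20053 (23.4%) and with 23.6% of all protein‐coding genes. The odds ratio was 3.52 (interval 2.42 to 5.11), with an adjusted p of 1.41e-09 in Fisher's exact test (two‐sided, Benjamini‐Hochberg over 7 tests). The genes behind peaks were also longer, with a median of 37.3 kb against 27.2 kb, and expression was not measured in these files. The other protein-coding genes were not limited to those with strand free of genes past their end. The part of length, expression and free strand in this difference was not tested. Still, 53 of the 110 genes had no peak inside, and 93 of the 219 peaks lay behind such genes.

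Most genes behind had a single intergenic peak, 121 of 160, and 19 genes had 3 or more, which together held 125 peaks. Among these 19, 9 had no peak inside the gene. Of the 10 with a peak inside, 3 (PTBP2, COL4A1 and ENSG00000289357) had a taller peak inside than past the end. The runs past the 6 genes plotted below differed in where they began and how far they reached.

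IFI44L, an interferon‐induced gene, and ZNF207, which encodes a zinc finger protein of the mitotic spindle, each had 17. Past IFI44L all 17 peaks lay between 1046 and 3026 nt from the end, in the gap of 3651 nt before IFI44, its interferon‐induced neighbour on the same strand. Their heights ran from 18 to 135 with a median of 35. The 4 highest stood side by side between 2272 and 2533 nt, the tallest of them 135 at 2272 nt without ACTAAC and the next 103 at 2533 nt with it. These 4 were nearer to the start of IFI44 ahead, at 1118 to 1379 nt. IFI44L itself held 29 peaks, the tallest 102 high, and IFI44 held 10, so this run lay between genes that both held peaks. Past ZNF207, 16 of the 17 peaks lay between 458 and 3540 nt and the last at 8102 nt. They formed a group within the first 923 nt with a highest value of 55 and a second between 2624 and 3540 nt with heights of up to 62, and the peak nearest the gene held the only ACTAAC. ZNF207 itself held 3 peaks, the tallest 45 high.

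DSEL, a relative of dermatan sulfate epimerase, had 12 intergenic peaks spread from 1619 to 9908 nt past its end. The tallest, 82 at 6489 nt, had no ACTAAC, and the next, 70 at 7865 nt, had it. The gene held 1 peak, 74 high. The opposite‐strand start of the lncRNA gene ENSG00000263424 lay behind the 12 intergenic peaks at nearly the same distances, 1621 nt for the nearest. RPL11, which encodes a protein of the large ribosomal subunit, had 11 peaks from 729 to 5380 nt past its end and none inside. Heights there ran from 13 to 103, 9 of the 11 lay between 2606 and 3900 nt, and none had ACTAAC.

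HNRNPR, an RNA‐binding protein of the hnRNP family, had 7 peaks in a compact run from 7971 to 8708 nt past its end, with none nearer. In order of distance their heights were 17, 80, 62, 25, 91, 152 and 12. The peak of 91 had ACTAAC. The peak of 152 had none, and its central 30 bases occur 14 times in the genome. The gene held 2 peaks, the tallest 25 high, below 4 of the 7 intergenic peaks. The run also lay 7575 to 8312 nt before LINC01355 on the same strand, and its nearest gene edge was the opposite‐strand start of the lncRNA gene ENSG00000284726, 1997 to 2734 nt behind it.

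RPAP3, a cofactor in the assembly of RNA polymerase II, had 7 peaks between 1697 and 4906 nt past its end and none inside. Of these 3 held ACTAAC, the most for any gene, with heights of 21, 22 and 24, and the tallest of the run, 71 at 1764 nt, did not. LSM12 had 7 peaks, all between 4131 and 4974 nt and up to 50 high. They lay equally far, 4131 to 4974 nt, before the same-strand start of U3. ZNF876P had 7 between 6828 and 9136 nt and up to 29 high. Neither LSM12 nor ZNF876P held a peak.

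**Figure D2:**
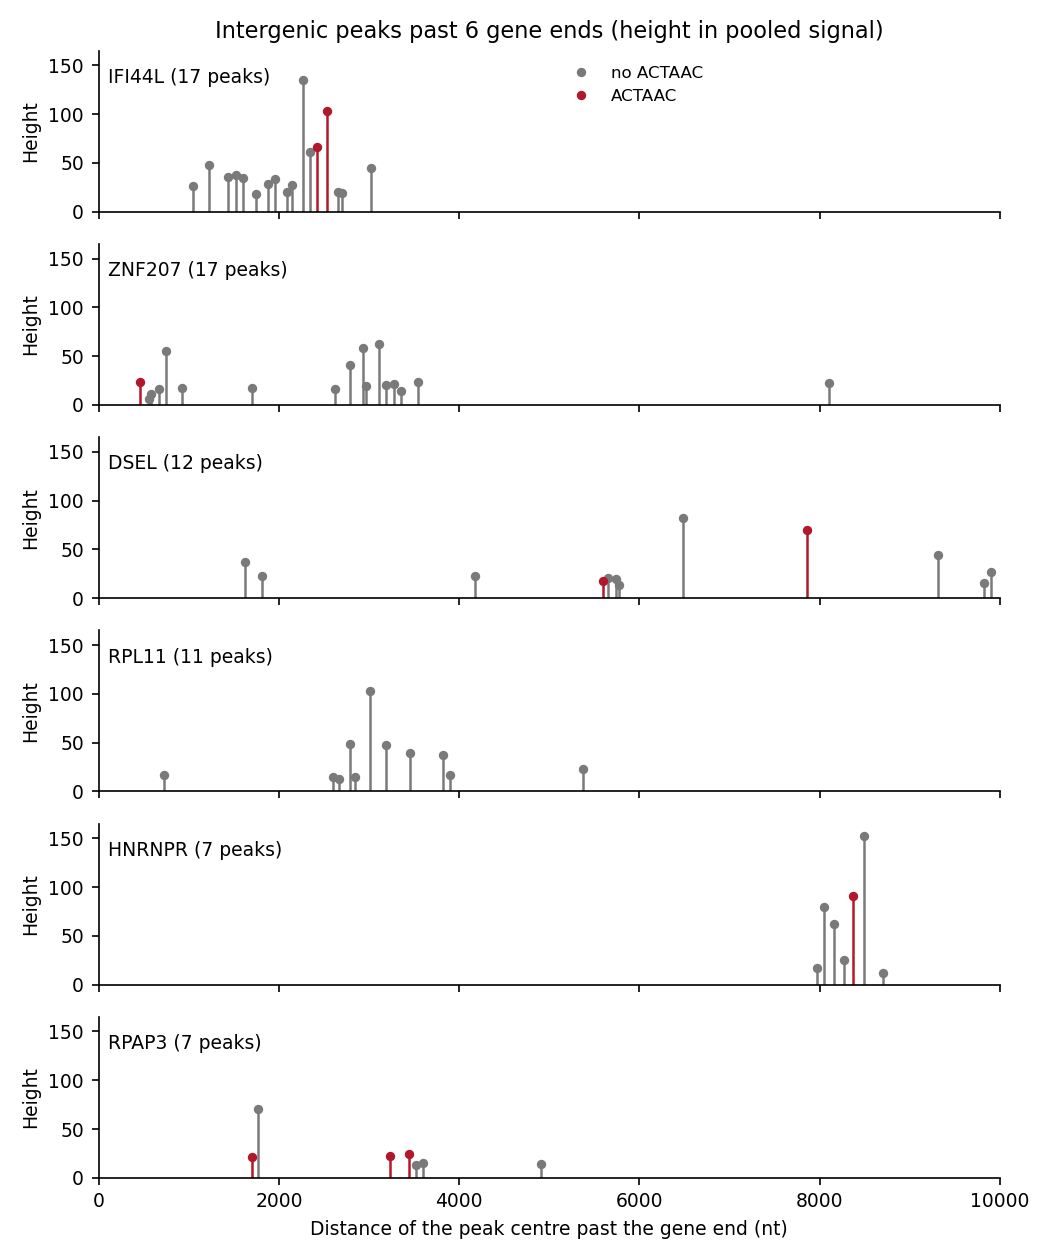
Each panel shows the intergenic peaks within 10 kb past the end of 1 gene, with the distance of the peak centre past the end in nt (x axis) and the peak height in pooled signal (y axis), and red marks peaks with ACTAAC. The peaks past HNRNPR begin at 7971 nt, those past IFI44L stop at 3026 nt, and those past DSEL spread up to 9908 nt.

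The remaining genes with several peaks had smaller runs. BOK, a member of the BCL‐2 family, had 5 between 4916 and 6596 nt (heights 19 to 78), and JRK had 5 between 546 and 3423 nt (12 to 72). The peaks past BOK were nearer to the same‐strand start of ENSG00000273113 ahead, at 1195 to 2875 nt. SPCS2, a subunit of the signal peptidase complex, had 4 between 1438 and 3890 nt, 2 of them with ACTAAC (heights 18 and 66). ZNF776 had 4 between 1488 and 1825 nt, up to 63 high, and LY6E had 4 between 15 and 1249 nt, up to 35 high. The 6 genes with 3 peaks each were COL4A1, a chain of basement membrane collagen, YBX1, an RNA‐ and DNA‐binding protein, PTBP2, a splicing regulator, GTF2E2, a subunit of the general transcription factor TFIIE, the pseudogene PABPC1P2 and the lncRNA gene ENSG00000289357. Their tallest intergenic peaks were between 20 and 36 high. PTBP2 was the only one of the 6 with ACTAAC in such a peak, at 3703 nt, and its own 5 peaks reached 111, well above the 22 of its tallest intergenic peak.

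Across all intergenic peaks, 279 of the 344 loci held a single peak and 65 held several, 229 peaks in all. The 5 loci with the most peaks were those past IFI44L (17), past ZNF207 (16), a locus past MGAT2 (12), past RPL11 (9) and past HNRNPR (7), the last tied with LSM12 and ZNF876P and placed by its height. The locus near MGAT2, a glycosyltransferase of N‐glycan synthesis, lay 17260 to 19570 nt past its end and 5497 to 7807 nt from the start of DNAAF2, an opposite‐strand gene that begins between MGAT2 and the peaks. Its 12 peaks were between 17 and 63 high, with a median of 32, and none had ACTAAC. A further locus of 6 peaks lay 1686 to 2901 nt before MIR503HG, a microRNA host gene, and 227 to 1442 nt from the opposite‐strand start of LINC00629. In order of distance from MIR503HG its heights were 13, 29, 73, 63, 60 and 56, and the peak of 73 had ACTAAC.

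The 3 peaks with ACTAAC far from genes that are printed above lay in different settings. Those of 52 and 50 lay 26167 and 33498 nt before MIR222HG, the host gene of miR‐221 and miR‐222, which held 19 peaks. MIR222HG was the nearest start ahead for 8 intergenic peaks in 5 loci, between 15925 and 57354 nt away and up to 52 high. The peak of 55 was 18718 nt past DUSP8, a dual specificity phosphatase gene with none.

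ACTAAC was far more frequent in the intergenic peaks than beside them. It occurred on the peak's strand in 47 of 508 peaks (9.25%, interval 7.03 to 12.1%), compared with 10.1% of all nuclear peaks. Windows of the same length 500 nt to the 5′ side held it in 9 of 508 cases (1.77%) and those to the 3′ side in 8 (1.57%). Against the 5′ windows, 45 pairs had the motif in the peak alone and 7 in the window alone, a ratio of 6.07 after adding 0.5 to each count (adjusted p = 2.44e-07, exact McNemar test, two‐sided). The 47 peaks came from 44 loci. Among hexamers present in at least 5% of the peaks, ACTAAC had the highest ratio of peaks to windows, at 5.28. CTAACA, which overlaps it, followed at 5.00, and GGAGGG, in 7.87% of peaks and 1.77% of windows, at 4.26. The filter used the peaks themselves and so favours hexamers frequent in them. This ranking is a description and no further test of the motif.

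**Figure D3:**
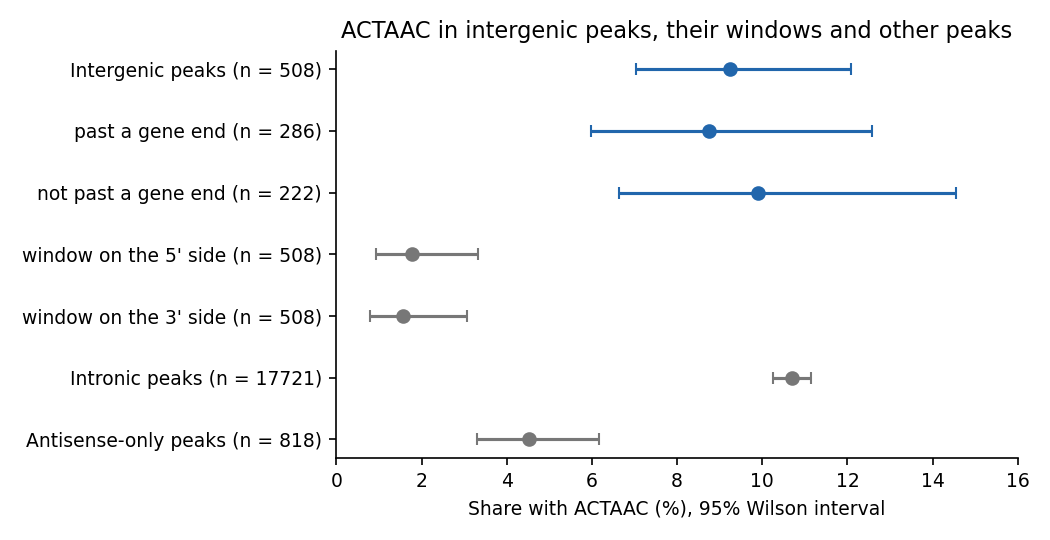
Points give the share of peaks or windows with ACTAAC (x axis, percent) and bars the 95% Wilson interval, for the 508 intergenic peaks, those within 10 kb past a same‐strand end, those that are not, the windows 500 nt to either side, intronic peaks and peaks that lie in a gene of the opposite strand only. Intergenic peaks, at 9.25%, sit near intronic peaks and above their windows at 1.77 and 1.57%.

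Sites were also placed relative to the peak centre. Within 250 nt of the centres there were 162 ACTAAC sites on the strand of the peak, of which 47 (29.0%, interval 22.6 to 36.4%) began no more than 25 nt from a centre, where an even spread would place 10.3%. On the opposite strand there were 26 sites, of which 0 started within 25 nt (interval up to 12.9%). Neighbouring peaks share sites in such windows. With 1 peak per locus, 33 of 104 sites (31.7%) on the peak's strand lay within 25 nt and 0 of 19 on the opposite strand.

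**Figure D4:**
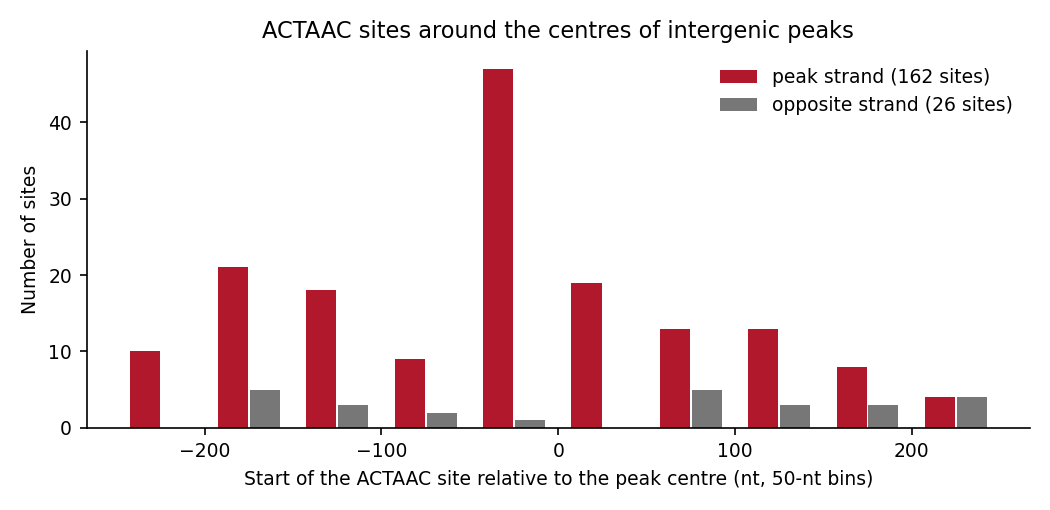
Bars count ACTAAC sites by the position of their first base relative to the peak centre (x axis, nt, bins of 50 nt) on the peak's strand (red) and on the opposite strand (grey). The bin just 5′ of the centre holds 47 sites on the peak's strand, the most of any bin, and 1 on the opposite strand.

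The share with ACTAAC was then compared with that of intronic peaks, whose centre lies in a same‐strand gene and in no same‐strand exon. ACTAAC occurred in 1894 of 17721 intronic peaks (10.7%), and the odds ratio of intergenic to intronic peaks was 0.860 (interval 0.635 to 1.16, adjusted p = 0.600 by the exact test of Fisher, two‐sided). The difference was not detectable at this number of peaks, which leaves odds from 0.635 to 1.16 times those of intronic peaks. The call depended on how neighbouring peaks were counted. With the tallest peak of each locus alone, ACTAAC occurred in 33 of 339 intergenic and 1377 of 9530 intronic peaks. The odds ratio was 0.647 and passed the same exact test (adjusted p = 0.0329), so that by locus the motif was less frequent in intergenic peaks. Over all peaks, the median width was 56 nt for intergenic and 61 nt for intronic peaks. The part of width in these comparisons was not tested. Peaks that lay in a gene of the opposite strand only had ACTAAC in 37 of 818 cases (4.52%, interval 3.30 to 6.17%), a share whose difference from the intergenic peaks was not tested.

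No difference in motif with nearness to a gene end was detectable. ACTAAC occurred in 25 of the 286 peaks within 10 kb past an end (8.74%) and in 22 of the other 222 (9.91%), with an odds ratio of 0.869 (interval 0.479 to 1.58, adjusted p = 0.755, Fisher's exact test). The poly(A) signal hexamers AATAAA and ATTAAA, which mark transcript ends, were rare in both kinds of peak. They occurred in 9 of 508 intergenic peaks (1.77%) and 403 of 17721 intronic peaks (2.27%), with 2.24% over all nuclear peaks, an odds ratio of 0.816 (interval 0.426 to 1.56, adjusted p = 0.755, Fisher's exact test).

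No difference in height from the rest of the list was detectable. Their median height was 23, with quartiles at 18 and 31 and a range from 6 to 641, and their median width was 56 nt. At or above 23, the median of all nuclear peaks, were 273 of 508 (53.7%) and 53.4% of all nuclear peaks, and the odds ratio against the 23511 other peaks was 1.01 (interval 0.850 to 1.21, adjusted p = 0.893, Fisher's exact test). Within 10 kb past an end 160 of 286 reached it (55.9%) and elsewhere 113 of 222 (50.9%), an odds ratio of 1.22 (interval 0.862 to 1.74, adjusted p = 0.600, Fisher's exact test). Peaks with ACTAAC had a median height of 24 and a median width of 67 nt, and those without it 23 and 55 nt.

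**Figure D5:**
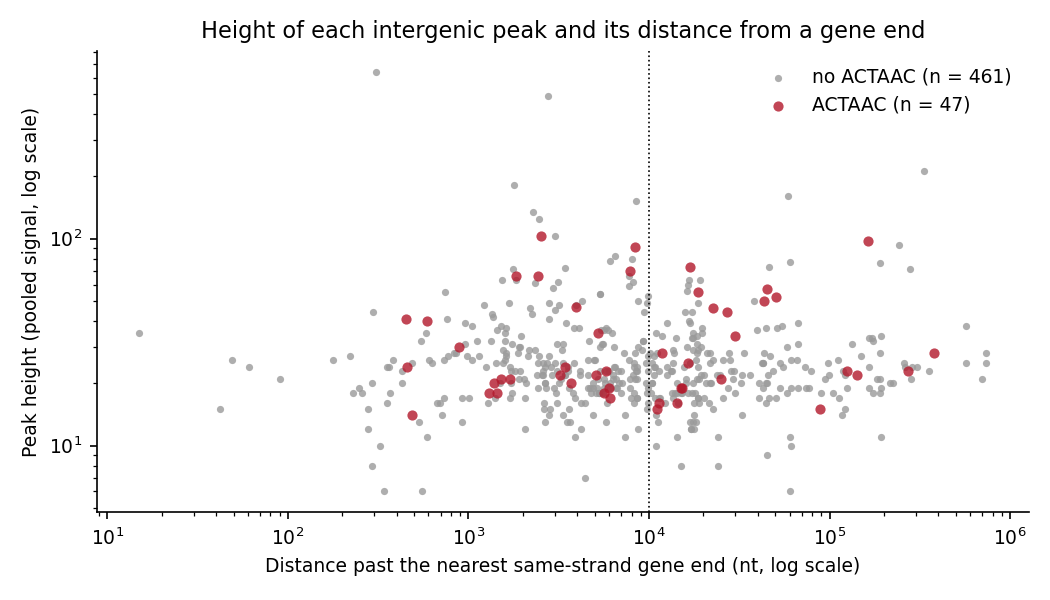
Each point is 1 of the 508 intergenic peaks, with the distance past the nearest same‐strand gene end (x axis, nt, log scale), the height (y axis, pooled signal, log scale) and red for peaks with ACTAAC, and the dotted line marks 10 kb. Tall and low peaks occur at short and long distances, and the peaks with ACTAAC, between 14 and 103 high, lie on both sides of the line.

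The peaks of 641, 491, 213 and 161 resembled abundant RNAs, and that of 182 had central bases repeated in the genome. The tallest, 641 high and 309 nt past VAV3, a guanine nucleotide exchange factor gene, aligned over 94 nt with 92.6% identity to the ribosomal RNA repeat, starting 3527 nt past the 5.8S sequence of that repeat. The second, 491 high and 2761 nt past RNF141, a RING finger gene, was identical to the mitochondrial genome over all its 59 nt. The peaks of 213 (332323 nt past MAF) and 161 (3409 nt before BEND7) aligned over 35 and 36 nt to U6 snRNA, the RNA of the spliceosome's catalytic core, with 91.4 and 97.2% identity. The fourth, 182 high and 1779 nt past the lncRNA gene ENSG00000247765, had central 30 bases that occur 1197 times in the genome.

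The rest of the 10 tallest resembled none of the abundant RNAs searched. They were the peaks of 152 past HNRNPR, 135 and 103 past IFI44L and 103 past RPL11, already described, and a peak of 124 that lay 45 nt before FANCE, a gene of the Fanconi anaemia core complex, and only 22 nt wide. Of the 10 tallest, 1 had ACTAAC.

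In all, 6 of the 508 intergenic peaks (1.18%) resembled mitochondrial RNA, ribosomal RNA or a small nuclear RNA, as did 66 of all 24019 nuclear peaks (0.275%) and 10 of 17721 intronic peaks (0.0564%). The difference from intronic peaks had an unadjusted p of 2.87e-06 in Fisher's exact test chosen after the tallest peaks were seen. Their heights were 641, 491, 213, 161, 71 and 24. The central 30 bases were found once in the genome in 441 intergenic peaks (86.8%, interval 83.6 to 89.5%). The share was 89.1% of all nuclear peaks, which lies inside that interval, and 92.8% of intronic peaks. Against intronic peaks the unadjusted p was 4.02e-06 in Fisher's exact test, also chosen after seeing the data. At least 100 copies were found for 24 of 508 intergenic and 1008 of 24019 nuclear peaks, which are similar shares. Among intronic peaks it was 294 of 17721, a smaller share, and this difference was not tested. The authors removed alignments of low mapping quality before calling. The list gives peak positions and not reads, so which copy of a repeated sequence gave rise to a peak was not tested. For the 6 peaks like abundant RNAs, from the tallest down, the central 30 bases were found 5, 4, 1, 1, 33 and 1 times. Whether the reads of these 6 peaks came from the listed places or from the abundant RNAs was not tested.

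The boundary of the rule fell among peaks very close to gene ends. The 5 intergenic peaks nearest past an end lay 15 nt past LY6E, 42 nt past PLEC, 49 nt past DNAJC28, 61 nt past P3H3 and 90 nt past the pseudogene MTCYBP33, with heights of 35, 15, 26, 24 and 21. The 5 same‐strand peaks nearest the inside of an end lay 14 nt inside AK3, 22 nt inside MIR4472-2, 28 nt inside FAM222A-AS1, 39 nt inside MYNN and 58 nt inside PLEC, with heights of 25, 24, 49, 409 and 646. Within 1000 nt of an end there were 491 peaks inside and 53 intergenic peaks past it. The 53 leave out peaks past an end that lay in another gene on either strand, so the 2 counts are not alike.

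The authors called peaks 1 strand at a time. On the minus strand were 299 of the 508 intergenic peaks (58.9%, interval 54.5 to 63.1%) and 50.4% of all nuclear peaks. By locus the shares were 69.2% and 56.2%. Median heights were 24 on the minus and 21 on the plus strand among intergenic peaks, and 25 and 21 among all nuclear peaks. The part of strand in the results above was not tested. The mesenchymal markers VIM, FN1, CDH2, ZEB1 and ZEB2 held 3, 24, 3, 3 and 11 same‐strand peaks, and the epithelial markers CDH1, EPCAM, ESRP1, GRHL2 and CLDN4 held 0 each. Of all protein‐coding genes, 23.6% held a same‐strand peak. Both marker lists were chosen with earlier results of these data known, so they are no independent check of the cell type. A list of peaks does not measure expression, and peaks depend on binding as well as on the amount of RNA.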

How the data were processed

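Per the labels and the study's methods, reads were trimmed with cutadapt, mapped to hg19 with TopHat2, collapsed by molecular barcode and filtered for mapping quality. The authors then called peaks on the pooled libraries against size‐matched input with MACS2 2.1.1.20160309, plus and minus strand apart. The deposited list gives position, strand, summit and height, a pooled signal by the authors and not a count per sample. The 18 mitochondrial peaks were left out. Positions are printed with the first base counted as 1.

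Peaks were classed by their centre against GENCODE release 44 on GRCh37, an annotation other than the authors' own. Distances run from the peak centre. Eligible strand is every base outside genes on both strands, without unknown bases. Similarity to abundant RNAs was taken from BLAST 2.17.0 (at least 30 nt and 85% identity, same strand) against the mitochondrial genome, the ribosomal repeat and 8 small nuclear RNAs. Copies are exact matches of the central 30 bases on either strand.

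Tests treated peaks, or genes, as units, although peaks of 1 locus are not independent. Odds ratios were computed after adding 0.5 to each cell, with Woolf intervals, and p-values were adjusted over 7 tests. The repeat share was left out because the genome sequence carries no repeat marks. The intergenic class, the comparisons and the marker lists were chosen with earlier results of these data known. Named peaks and genes followed a rule: the 10 tallest, the 5 loci with most peaks, the 5 tallest with ACTAAC near coding gene ends and the 5 far from genes, genes with at least 3 peaks, and the 5 nearest to either side of a gene end. Of these peaks, 3 are not reported here. MIR503HG and the other peaks before MIR222HG were named after their values were seen, as were the remaining peaks like abundant RNAs. Alternatives were a height filter, 1 peak per locus, whole peaks or summits in place of centres, protein‐coding genes only, other distances, motifs, windows and thresholds. Scripts were tested on simulated data. Python 3.11.15 was used with scipy 1.17.1 and pysam 0.24.0.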

Additional observations from a re-analysis of the deposited data

How the results depend on the processing

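No paired analysis was possible because the libraries were pooled before peaks were called. The motif against the windows and the peaks in genes behind kept their direction and their side of the threshold under every alternative run. Counting only peaks at or above the median height left 273 intergenic peaks, and annotation limited to protein‐coding genes gave 2156, a different and larger set in which 15.2% lay within 10 kb past an end and 61.7% were nearer to an end. The share past an end was 51.3% with 1 peak per locus, 38.4% within 5 kb and 74.8% within 20 kb. The odds ratio of ACTAAC against intronic peaks passed the test with 1 peak per locus (0.647) and with protein‐coding genes only (0.752), and turned to 1.16 with TACTAAC. Near against far from an end it turned to 1.405 with protein‐coding genes only and to 1.024 with ACTAAC or ACTAAT. The odds ratio of height turned to 0.901 with 1 peak per locus, 0.826 at the upper quartile, 0.975 with unique central bases and 0.995 without peaks like abundant RNAs, the last 2 chosen after seeing the data. It passed at 1.22 with protein‐coding genes only, where near against far turned to 0.872. The poly(A) hexamers turned to 1.014 with 1 peak per locus and 1.095 with protein‐coding genes only. None of these turned values passed the test, and their causes were not tested. The list holds no unplaced or alternative sequences, so that alternative gave no value, and the repeat share was not run.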
